A study of Mus musculus with 4 samples.

Results

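Open chromatin was described at 39 genes of integrins, laminins, and hemidesmosome and basement membrane proteins. The cells were hair follicle stem cells of wild-type mice and of mice bred to delete the genes of the transcription factors NFIB and NFIX. The set holds 24 integrin genes, 10 laminin genes and 5 others, namely the plakins Dst and Plec, the nidogens Nid1 and Nid2, and the perlecan gene Hspg2. A peak was placed at a gene where its summit lay in, or nearest to, the body of that protein-coding gene (mm10) and at most 100 kb away. Peaks of both genotypes that overlapped were joined into regions found in the WT list only (WT-only), in the knockout list only (dKO-only) or in both (shared). This gave 338 regions at 36 of the 39 genes, out of 70877 regions placed at 15454 genes and 79122 regions in all. Itgal and Itgam, which encode integrin alpha chains of white blood cells, and the laminin gene Lamc3 had no region.

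ATAC-seq, which marks open DNA by where a transposase can insert sequencing adapters, was run on cells sorted from back skin; the mice were males aged 70 postnatal days, in the second resting phase of the hair cycle. The 2 wild-type (WT) mice, numbers 13 and 15, were NFIBfl/fl;NFIXfl/fl;R26-YFPfl/fl without Cre, so their Nfib and Nfix alleles were floxed with no Cre to delete them. The 2 double-knockout (dKO) mice, numbers 14 and 16, carried the same alleles and Sox9-CreER, a Cre made where Sox9 is active and switched on by tamoxifen, with dose and time not given here. Sorted cells of all 4 mice were negative for DAPI and Sca-1 and positive for CD34 and for integrin alpha 6, the protein of the set's gene Itga6, and the dKO cells were also YFP-positive. Each genotype has a single deposited peak list (1 for 2 mice), so spread between mice is unknown and the genotypes could not be compared by a test. The 95% Wilson intervals below cover counting error only. In sorted bulk cells, a site open in fewer cells and a site less open in each cell cannot be told apart.

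Integrins are receptors made of an alpha and a beta chain that span the cell membrane, and the alpha chain largely sets which ligand is bound. Laminins, each made of an alpha, a beta and a gamma chain, are the main ligands in the basement membrane, where nidogens and perlecan link them to other matrix. In hemidesmosomes the integrin of the Itga6 and Itgb4 chains holds laminin outside the cell, and plectin (Plec) and the epithelial product of Dst tie it to keratin filaments inside. Stem cells of the follicle bulge sit on such a membrane, and nephronectin, made by bulge cells, is known as the ligand that anchors the arrector pili muscle through the integrin of the Itga8 and Itgb1 chains.

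Wherever a region overlapped a promoter window of these genes, it was found in both genotypes. RefSeq promoter windows (GRCm38.p6), each 250 bases before to 50 after a gene start, were given for 25 of the 39 genes, in 29 windows. A region overlapped 19 of the 29 windows (65.5%), and 58.2% of the 21262 windows of all protein-coding genes. At all 19 the region was shared. Overlap with a window need not reach the start site, as at an Itga3 window (start 95069198, region chr11:95069436-95070937). The shared part was not computed for the windows of all genes. Sharing is common at such places, as 90.2% of all regions at gene ends (defined below) were shared. NFI proteins are known to bind a palindrome of the core TTGGC, a spacer of 5 bases and GCCAA. The core, searched as TTGGC or GCCAA so that both strands were covered, stood in 12 of the 29 windows (41.4%, interval 25.5 to 59.3), and in 47.9% of 21262 windows of all protein-coding genes. The whole palindrome was in 0 of the 29 windows and in 7 of the 21262 (0.0329%). The windows below are those of Itga8 and Itga5, which had the largest excess of dKO-only and of WT-only regions among the integrin genes, of Itgb8, with the most cores, and of Dst and Lamb1, a plakin and a laminin gene with WT-only excess. Each reads 5′ to 3′ in the direction of transcription, with cores in capitals, and matches are letters only, with no evidence here of binding.
Itga8 (chr2:12301895-12302194, minus strand): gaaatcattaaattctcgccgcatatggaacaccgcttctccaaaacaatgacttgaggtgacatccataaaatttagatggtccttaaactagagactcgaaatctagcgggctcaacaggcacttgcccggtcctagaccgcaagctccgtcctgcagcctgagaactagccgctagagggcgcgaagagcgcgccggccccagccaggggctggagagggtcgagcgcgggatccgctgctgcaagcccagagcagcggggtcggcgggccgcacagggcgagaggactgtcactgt
Itga5 (chr15:103366742-103367041, minus strand): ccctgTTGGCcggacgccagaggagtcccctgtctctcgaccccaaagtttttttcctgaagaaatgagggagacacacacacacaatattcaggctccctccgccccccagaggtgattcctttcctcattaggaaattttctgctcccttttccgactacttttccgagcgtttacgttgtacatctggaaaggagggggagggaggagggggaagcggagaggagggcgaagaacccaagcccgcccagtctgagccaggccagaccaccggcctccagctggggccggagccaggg
Itgb8 (chr12:119238227-119238526, minus strand): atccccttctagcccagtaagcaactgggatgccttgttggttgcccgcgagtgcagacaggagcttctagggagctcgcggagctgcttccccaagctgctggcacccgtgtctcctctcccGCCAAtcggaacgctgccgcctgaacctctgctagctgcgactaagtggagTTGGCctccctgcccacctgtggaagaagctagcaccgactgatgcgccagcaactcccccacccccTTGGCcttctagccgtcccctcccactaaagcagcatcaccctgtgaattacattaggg
Dst (chr1:34160010-34160309, plus strand, the second of its listed starts): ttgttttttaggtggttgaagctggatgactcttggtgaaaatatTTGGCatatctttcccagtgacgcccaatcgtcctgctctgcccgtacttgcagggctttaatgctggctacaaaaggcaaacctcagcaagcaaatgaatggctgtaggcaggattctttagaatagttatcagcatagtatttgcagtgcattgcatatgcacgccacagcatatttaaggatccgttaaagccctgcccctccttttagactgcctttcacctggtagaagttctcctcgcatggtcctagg
Lamb1 (chr12:31265043-31265342, plus strand): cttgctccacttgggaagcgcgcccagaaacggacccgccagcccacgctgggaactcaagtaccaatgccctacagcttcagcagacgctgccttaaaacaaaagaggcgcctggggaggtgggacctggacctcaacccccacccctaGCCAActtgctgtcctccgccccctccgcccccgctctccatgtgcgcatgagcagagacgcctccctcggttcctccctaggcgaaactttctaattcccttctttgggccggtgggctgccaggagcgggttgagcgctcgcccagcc

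The shared region over the Itga8 window (chr2:12300853-12302284) had a pileup, the number of reads or fragments stacked at the summit, of 168 in WT and 168 in dKO. Its fold, the authors' ratio of pileup to local background, was 16.03 in WT and 14.1 in dKO. Over the Itgb8 window with its 3 cores the shared region (chr12:119237359-119239193) had a WT pileup of 490. Over the Dst window it was 446, over the Itga5 window 165 and over the Lamb1 window 75. Windows with and without a core were thus both open, and no window of the set was open in a single genotype.

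The shares of the classes over the whole set were close to those over all regions at genes. WT-only regions numbered 70 of 338 (20.7%, interval 16.7 to 25.3), where all regions placed at genes gave 21.2%. dKO-only regions numbered 48 (14.2%, 10.9 to 18.3), against 12.8% over all. Shared regions numbered 220 (65.1%, 59.9 to 69.98), against 66% over all. The net share, the number of WT-only less that of dKO-only regions, in percent of all regions, was 6.51% in the set and 8.35% over all regions placed at genes. Without Itga8 it was 10.1%, with dKO-only regions at 11.3% (8.35 to 15.3).

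By gene, 15 of the 36 members had more WT-only than dKO-only regions, 6 had more dKO-only regions and 15 had equal numbers. Of all genes with a region, 34.5% had more WT-only regions, 16.6% more dKO-only regions and 49% equal numbers. A WT-only excess of at least 3 was found at 7 members (Dst, Itga5, Hspg2, Itgb6, Itga9, Itgb2 and Lamb1), and 7.16% of all genes with a region reached it. A dKO-only excess of at least 3 was found at Itga8 alone, and 2.57% of all genes reached it. At 9 members every region was shared, and 35 of the 36 had at least 1 shared region, Itgb3 being the exception. The shares of all genes for these counts were not computed. A gene with few regions can have all of them shared more easily. Of the 9, Itga10, Itgb7 and Lamb2 had 1 region each, and Itga2b, Itga7 and Nid1 had 2 each. Members had between 1 and 35 regions each, with a median of 8.5, where the median over all genes was 2. A gene with more regions can reach an excess of 3 more easily, and the shares over all genes were not matched for this.

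**Figure D1:**
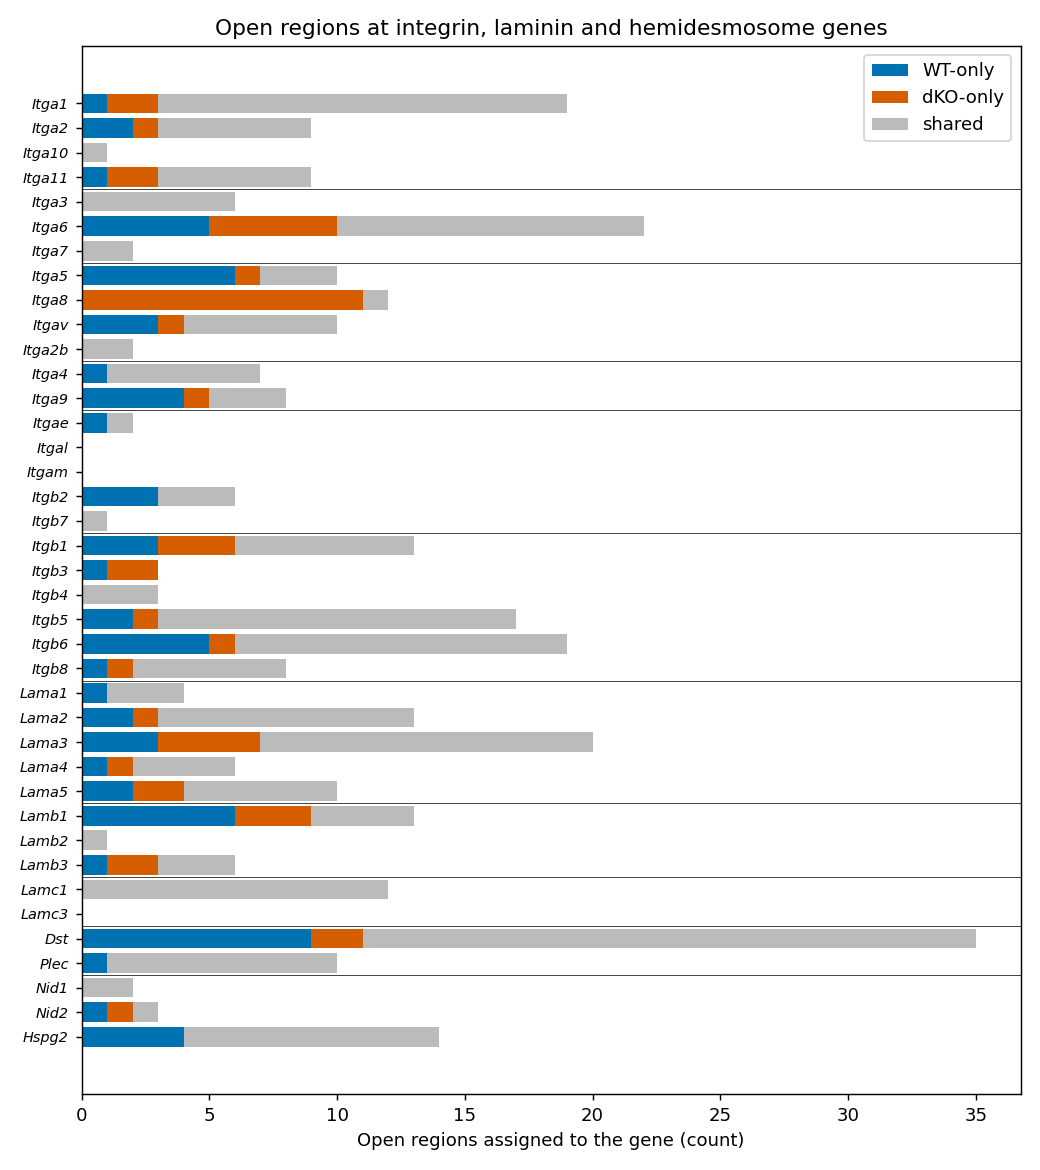
Number of open regions (horizontal axis, count) placed at each of the 39 genes (vertical axis), stacked by class: WT-only in blue, dKO-only in orange and shared in grey. Thin lines separate groups of genes by role, from collagen-binding alpha chains at the top to nidogens and perlecan at the bottom; Itga8 is the one long orange bar, with 11 dKO-only regions, and Dst has the most regions, 35.

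The lists differed in depth. They held 68197 WT and 63548 dKO peaks. Without mitochondrial peaks, the median pileup was 73 over 68192 WT peaks and 38 over 63545 dKO peaks. The lowest local backgrounds, 5.29 in WT and 2.73 in dKO, had a ratio of 1.94. Pileup, fold and −log10 q are the authors' own values for a peak and are set side by side here, not compared, between lists. A region of 1 list only had no overlapping peak in the other list at a −log10 q of 1.3 or more, which does not show that it was closed there. Of 9 markers of hair follicle stem cells and basal keratinocytes, 8 had a peak at a gene end in WT and 8 in dKO, Trp63 being without one. Of the immune markers Ptprc, Cd3e and Lyz2, 0 of 3 had one in either list. Melanocyte markers had one in 2 of 3 (Dct and Mitf) in both lists, fibroblast markers in 3 of 3 in WT and 2 of 3 in dKO (Pdgfra without), and endothelial markers in 1 of 3 (Kdr) in both. The part of such cells in the results below was not tested.

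Itga8 had the largest difference between WT-only and dKO-only counts of all members. Of its 12 regions, 11 were dKO-only (91.7%, interval 64.6 to 98.5), 1 was shared and 0 were WT-only. The gene spans 195 kb of chromosome 2 (chr2:12106632-12301985, minus strand). Its 1 shared region was the one over its start, described above. Of the dKO-only regions 1 lay 5.8 kb upstream of the start, 6 lay inside the gene between 13.9 and 74.9 kb from the start, and 4 lay downstream, from 29 to 94.6 kb past the end of the gene. They thus surrounded a start site that was open in both genotypes.

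The strongest dKO-only region of Itga8 was a broad one of 2436 bp (chr2:12065846-12068281), 38.8 kb downstream, with a dKO pileup of 102, a fold of 7.90 and a −log10 q of 55.2. The next, 52.8 kb downstream (chr2:12053555-12054575), had a pileup of 75 and a fold of 10.1. Inside the gene the strongest (chr2:12255685-12256513) had a pileup of 66 and a fold of 9.21, and a second one at chr2:12249060-12250098 had a pileup of 39 and a fold of 8.80. The upstream region (chr2:12307257-12308756) had a pileup of 53 and a fold of 7.61. The weaker members of the group, at chr2:12225919-12227174 and chr2:12236510-12236760, had a pileup of 16 and a fold of 4.56 each, and the lowest fold was 2.92.

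**Figure D2:**
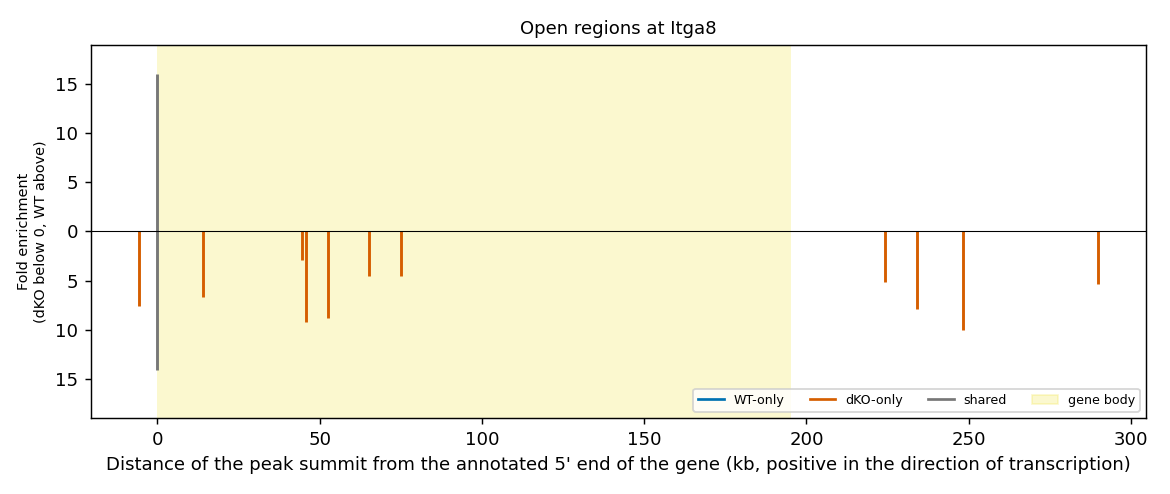
Regions at Itga8 by distance of the peak summit from the gene's start (horizontal axis, kb, positive in the direction of transcription), with the deposited fold enrichment in the WT list drawn above 0 and in the dKO list below 0 (vertical axis). The shaded band is the gene body; 1 shared region (grey) stands at the start with folds of 16.03 and 14.1, and 11 dKO-only regions (orange) stand upstream, inside and downstream of the gene, with no WT-only region.

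As a group, the 11 dKO-only regions of Itga8 had a median pileup of 39, a median fold of 6.71 and a median −log10 q of 16.6 in the dKO list. For the 37 dKO-only regions of the other members these medians were 21, 3.75 and 4.90. Only 8 dKO-only regions of the set ranked in the stronger 50% of the dKO list by −log10 q, and 5 of them were at Itga8. These peaks were listed for the genotype with the lower pileups, and why they were found in that list only was not tested. Over the whole genome, 10 genes had a dKO-only excess of 11 or more, Itga8 included. Among the 1355 genes with at least 12 regions, a limit set after its counts were seen, it was the 1 gene with a dKO-only share that high.

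The 7 protein-coding genes within 500 kb of Itga8 had 17 regions, 1 WT-only, 5 dKO-only and 11 shared. The nearest, Mindy3, 45.3 kb away, held 4 of the 5 dKO-only regions, beside 5 shared ones. Npnt, the gene of nephronectin, the ligand of the integrin that contains the Itga8 chain, had 8 regions, and all 8 were shared. Its partner chain Itgb1 had 7 shared regions, 3 WT-only and 3 dKO-only. The dKO-only excess at Itga8 was thus not seen at its partner or at this ligand.

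Itga5, which encodes the alpha chain of the main fibronectin receptor, showed the opposite pattern to Itga8, though both chains bind ligands with the RGD motif. It had 10 regions, 6 WT-only, 1 dKO-only and 3 shared, in and around a gene of 22.5 kb. The strongest WT-only region lay inside the gene 4.1 kb from its start (chr15:103362423-103363126) with a WT pileup of 214, a fold of 4.81 and a −log10 q of 73.4. The other 5 had pileups of 34 to 117 and folds of 2.61 to 6.20. The dKO-only region, near the far end of the gene, had a pileup of 39 and a fold of 5.92. Regions of all 3 classes lay inside this short gene, 7 of its 10 in all.

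Itgav, whose chain pairs with several beta chains and binds vitronectin and latent TGF-beta, had 6 shared regions, 3 WT-only and 1 dKO-only, and the platelet gene Itga2b had 2, both shared. The strongest Itgav region in both lists was shared, with a −log10 q of 261 in WT and 157 in dKO. Its WT-only regions lay inside the gene with pileups of 21, 45 and 207, and its dKO-only region lay 21.7 kb upstream with a pileup of 16. Together the RGD-binding alpha genes had 34 regions, 9 WT-only, 13 dKO-only and 12 shared. Of those 13 dKO-only regions 11 were at Itga8, so the group has no common direction.

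The laminin-binding alpha genes had 20 shared regions of 30 (66.7%), close to the 66% over all regions at genes. Itga3, whose chain pairs with Itgb1 in basal keratinocytes, had 6 regions, all shared. One inside the gene (chr11:95069436-95070937) was among the strongest of the set, with a pileup of 808 in WT and 261 in dKO and folds of 8.03 and 8.95. Itga7, the laminin receptor chain best known in muscle, had 2 shared regions. Itga6, the gene of the sort marker, had 22 regions, 5 WT-only, 5 dKO-only and 12 shared. Its gene-end region (chr2:71786611-71788053) was shared, with a pileup of 391 in WT and 170 in dKO and folds of 7.89 and 10.1.

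Around Itga6 regions of a single genotype lay on both sides. Of its 5 WT-only regions 4 lay 3.3 to 6.8 kb past the high-coordinate end, with pileups of 18 to 28. The fifth and strongest (chr2:71719110-71719890), 67.5 kb beyond the low-coordinate end, had a pileup of 36 and a fold of 5.88. Of its 5 dKO-only regions 3 lay on that same side, 27.6 to 97.7 kb from the gene, and 2 inside the gene. The strongest of these 5, 44.5 kb away (chr2:71742027-71742572), had a dKO pileup of 67, a fold of 5.41 and a −log10 q of 26.7. The 4 WT-only regions beside the gene were weak, with folds of 2.22 to 3.35, and with lists of equal length Itga6 had 2 WT-only and 6 dKO-only regions.

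The collagen-binding alpha genes had 29 shared regions of 38 (76.3%, interval 60.8 to 87.0), with 4 WT-only and 5 dKO-only. Over all regions at genes 66% were shared. Itga1 had 16 shared regions, 1 WT-only and 2 dKO-only. Itga2 had 6 shared regions, 2 WT-only and 1 dKO-only, Itga11 had 6, 1 and 2, and Itga10 had 1 region, which was shared. Itga1, a collagen receptor gene, held one of the highest folds of the set, 17.8 in WT and 15.4 in dKO, at a shared region inside the gene (chr13:114963924-114964615). At the start of Itga11, which encodes a collagen receptor chain best known in fibroblasts, the region was dKO-only, 0.8 kb inside the gene, with a pileup of 13 and a fold of 3.76.

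Itga4 and Itga9 encode related alpha chains that bind fibronectin and other matrix proteins. Itga9 had 3 shared regions, 4 WT-only and 1 dKO-only, with WT pileups of 19, 29, 43 and 45 for the WT-only regions and folds up to 7.31. Its dKO-only region had a pileup of 12 and a fold of 3.49. All 4 WT-only regions lay inside the gene, which spans 294 kb. Itga4 had 1 WT-only and 6 shared regions.

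Of the genes for white blood cell integrins, Itgb2 stood out. It had 3 WT-only and 3 shared regions and held the strongest WT-only region of the whole set (chr10:77544445-77545418), inside the gene, with a pileup of 313, a fold of 13.1 and a −log10 q of 228. That region ranked above 90.9% of all WT peaks, yet had no overlapping dKO peak. The other 2 lay just outside the gene, with pileups of 40 and 59. Itgb2 had no region at its own ends in either list, and none of the immune markers Ptprc, Cd3e and Lyz2 had a peak at a gene end. Which cells gave the Itgb2 regions was not tested. Itgae had 1 WT-only and 1 shared region and Itgb7 had 1 shared region.

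The other beta chains had 63 regions, 12 WT-only, 8 dKO-only and 43 shared. Itgb1, the partner of most alpha chains, had a strong shared region at its start (chr8:128684856-128686570), with a pileup of 584 in WT and 224 in dKO and folds of 10.8 and 12.2. Its 3 dKO-only regions all lay upstream, 39.9 to 76.4 kb from the start, with pileups of 15 to 21, and its 3 WT-only regions all lay inside the gene, with pileups of 19 to 25. Equal counts at Itgb1 thus stood for different places. With genes assigned within 20 kb only, it had 3 WT-only and 0 dKO-only regions.

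Itgb6, whose chain pairs with that of Itgav in epithelia, had 13 shared regions, 5 WT-only and 1 dKO-only. The strongest WT-only region lay 14.6 kb downstream (chr2:60583248-60584141) with a pileup of 155, a fold of 14.5, the highest fold among the WT-only regions, and a −log10 q of 122.8. A pair of WT-only regions inside the gene had pileups of 249 and 250 but folds of 2.18 and 2.47, which means a high local background, and the second of these (chr2:60692348-60693062) had a −log10 q of 33.6. Itgb6 also held 3 of the 8 strongest shared regions of the set by WT −log10 q. The first of these (chr2:60688903-60689715) had a pileup of 677 in WT and 231 in dKO and folds of 10.8 and 13.3. The next (chr2:60667448-60668665) had pileups of 593 and 108 and folds of 10.002 and 10.1. The third (chr2:60639396-60640750) had pileups of 708 and 279 and folds of 6.91 and 9.16. The single dKO-only region had a pileup of 16.

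Itgb5, another partner of Itgav, had 17 regions, 2 WT-only, 1 dKO-only and 14 shared. One WT-only region 1.7 kb past its end (chr16:33950888-33951488) had a pileup of 61 and a fold of 9.86. Itgb8 had 6 shared regions, 1 WT-only and 1 dKO-only. Itgb3, the vitronectin and fibrinogen receptor chain of platelets, had 1 WT-only region, 2 dKO-only ones and no shared one, with pileups of 28, 14 and 13. Itgb4, the hemidesmosome chain, had 3 regions, all shared.

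**Figure D3:**
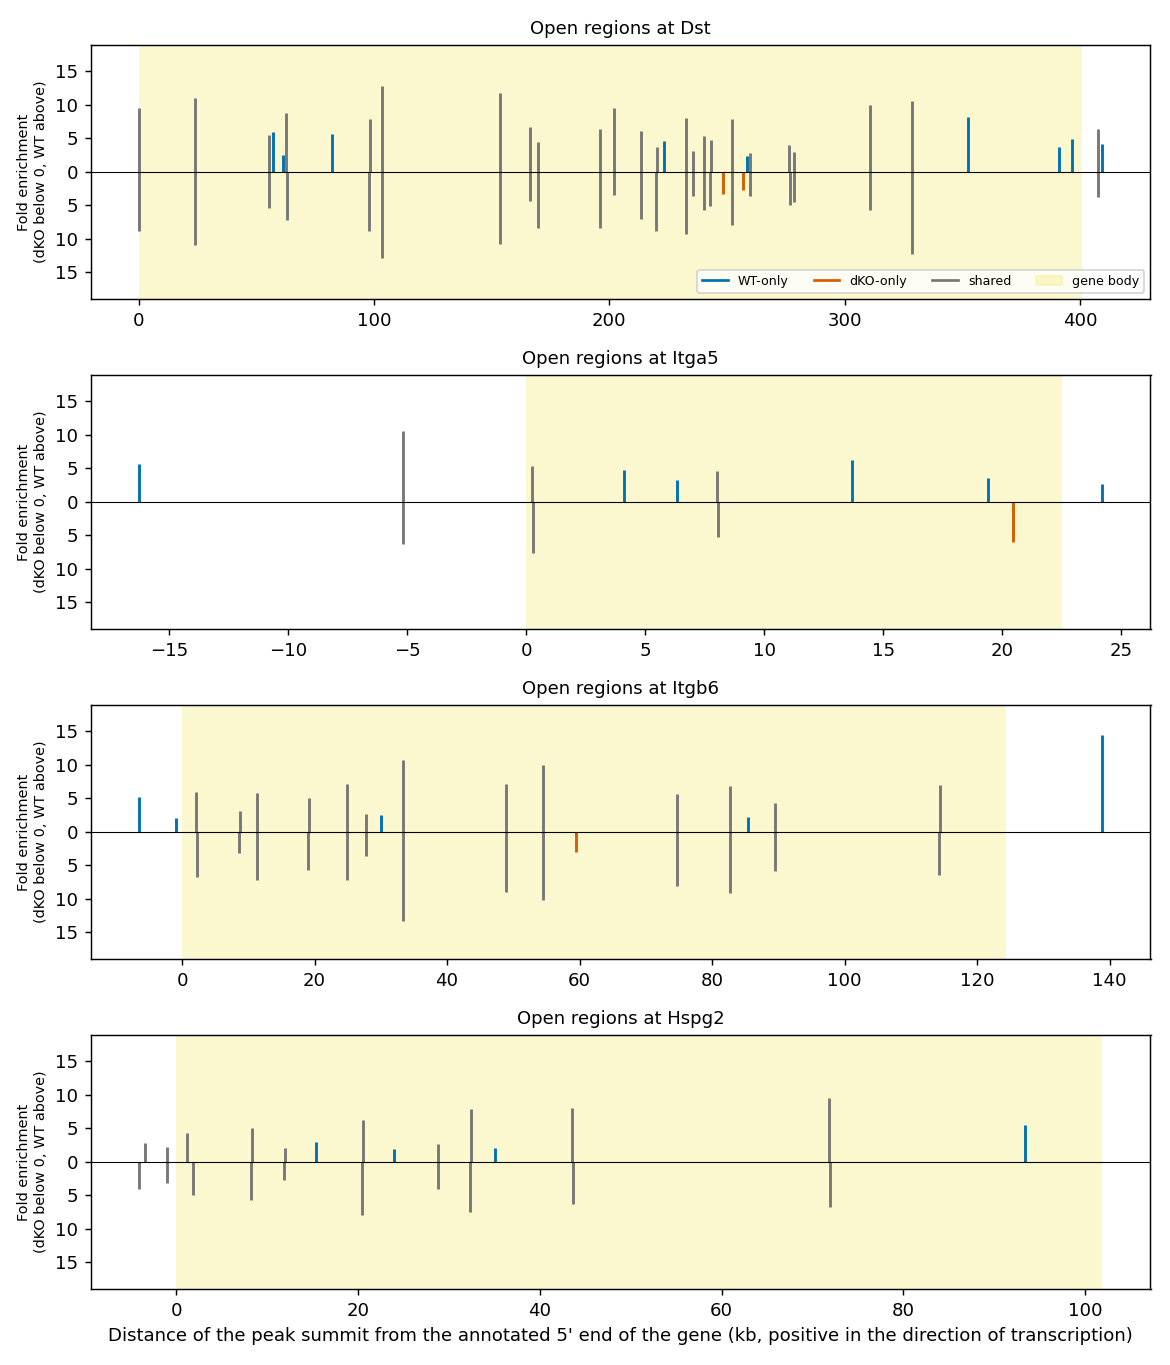
Regions at Dst, Itga5, Itgb6 and Hspg2 by distance of the summit from the gene's annotated 5′ end (horizontal axes, kb, positive in the direction of transcription), with the deposited fold in the WT list above 0 and in the dKO list below 0 (vertical axes). Shaded bands are gene bodies; WT-only regions (blue) stand among more numerous shared regions (grey) at Dst, Itgb6 and Hspg2, while at Itga5 there are 6 WT-only and 3 shared regions.

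The hemidesmosome genes Itga6, Itgb4, Dst and Plec were open at a gene end in both genotypes, and 90.2% of all regions at gene ends were shared. Together these 4 genes had 70 regions, 15 WT-only, 7 dKO-only and 48 shared. Their shares, 21.4%, 10% and 68.6%, lay near the 21.2%, 12.8% and 66% over all regions at genes. At each of the 4 the strongest gene-end region was shared. At Itgb4 (chr11:115974302-115976716) its pileup was 393 in WT and 132 in dKO, with folds of 6.04 and 7.21. At Dst (chr1:33906980-33908850) the pileup was 218 in WT and 90 in dKO, with folds of 9.48 and 8.82. At Plec (chr15:76230473-76231443) it was 124 in WT and 49 in dKO, with folds of 3.28 and 3.36, the lowest of the 4 genes.

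Dst, a gene of 401 kb with several starts that give nerve, muscle and epithelial forms, had 24 shared regions, 9 WT-only and 2 dKO-only. Its excess of 7 was the largest WT-only excess among the members, and 134 genes in the genome had one as large or larger. The strongest WT-only region (chr1:34259858-34261385) had a pileup of 66, a fold of 8.21 and a −log10 q of 38.1. The other 8 had pileups of 22 to 57. Its strongest shared region (chr1:34139131-34141130) had a pileup of 626 in WT and 261 in dKO and folds of 8.07 and 9.20. Both dKO-only regions lay close to strong shared ones around the second listed start, with pileups of 55 and 36 and folds of 3.31 and 2.75. Plec, whose protein links the integrin to keratin, had 1 WT-only and 9 shared regions. WT-only regions at Dst were thus spread along the gene, and its starts were open in both genotypes.

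The laminin genes had 85 regions, 16 WT-only, 13 dKO-only and 56 shared. Their shares, 18.8%, 15.3% and 65.9%, lay near the 21.2%, 12.8% and 66% over all regions at genes. Lamc1, which encodes the gamma chain of most laminins, had 12 regions and all 12 were shared. They ran from a pileup of 20 to 396 in WT and from 14 to 177 in dKO, so weak as well as strong regions were found in both lists. Of 1829 genes with at least 10 regions, a limit that was not planned, 11 had no single-genotype region. Lamc1 is among them and was singled out by these same counts. The strongest Lamc1 region, 1 kb outside the gene (chr1:153333185-153334183), had folds of 6.92 in WT and 8.31 in dKO. The shared region at its gene end (chr1:153331485-153332907) had a pileup of 276 in WT and 127 in dKO, with folds of 4.77 and 5.81.

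Lama3 and Lamb3 encode chains of the laminin that hemidesmosomes bind. Lama3 had 13 shared regions, 3 WT-only and 4 dKO-only, and its gene-end region was shared with a pileup of 251 in WT and 166 in dKO and folds of 12.3 and 15.0. Its strongest shared region, inside the gene, had a pileup of 600 in WT and 306 in dKO and folds of 8.47 and 10.6. Its strongest dKO-only regions, also inside the gene, had pileups of 31 and 28 and folds of 8.58 and 7.78. Lamb3 had 6 regions, 1 WT-only, 2 dKO-only and 3 shared, and the shared one over both its listed starts (chr1:193300144-193302437) had a pileup of 381 in WT and 127 in dKO. Neither gene had an excess of 3 either way.

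Lamb1, a beta chain gene of many basement membranes, had 4 shared regions, 6 WT-only and 3 dKO-only. Its WT-only regions were weak, with pileups of 16 to 29 and folds of 2.70 to 4.77, and with lists of equal length it had 4 WT-only and 4 dKO-only regions. The shared region at its start (chr12:31264546-31266445) had a pileup of 75 in WT and 76 in dKO and folds of 7.25 and 8.64. Lamb2 had 1 region, shared, just upstream of its start, with a pileup of 127 in WT and 55 in dKO and folds of 9.73 and 8.77. Lama5, the alpha chain gene of mature epithelial basement membranes, had 10 regions, 2 WT-only, 2 dKO-only and 6 shared, and its start was shared with a pileup of 233 in WT and 141 in dKO and folds of 4.23 and 5.76.

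Lama2, best known for its role in muscle, held the second strongest dKO-only region of the set (chr10:27022572-27023783), deep inside a gene of 636 kb, with a dKO pileup of 73, the highest fold among the dKO-only regions, 11.4, and a −log10 q of 52.4. It also had 2 WT-only regions with a pileup of 17 each and 10 shared regions. Lama1 had 1 WT-only and 3 shared regions, and its gene-end region had a pileup of 107 in WT and 112 in dKO, with folds of 8.90 and 10.005. Lama4, a chain of vessel walls, had 4 shared regions, 1 WT-only and 1 dKO-only, with a gene-end pileup of 45 in WT and 38 in dKO and folds of 4.97 and 6.36. Each of the laminin genes with a region at an own end had it in both lists.

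Hspg2, which encodes the proteoglycan perlecan, had 14 regions, 4 WT-only, 0 dKO-only and 10 shared. The WT-only regions all lay inside the gene, with pileups of 34, 61, 62 and 66 and folds of 1.96 to 5.57. The strongest of them by −log10 q had a value of 14.9, so they were among the weaker WT peaks. Nid1 had 2 shared regions, and Nid2 had 1 of each class.

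The surroundings of the genes with excess differed. The 12 protein-coding genes within 500 kb of Hspg2 had 45 shared regions, 22 WT-only and 0 dKO-only together, and the 22 around Itga5 had 42 shared, 23 WT-only and 5 dKO-only ones. At both genes WT-only regions also outnumbered dKO-only ones in the neighbourhood. Over all regions at genes WT-only regions were likewise the more numerous, 15026 against 9106 dKO-only ones. Around Dst the 14 neighbours had 7 WT-only and 6 dKO-only regions, around Itga9 the 15 neighbours had 5 and 5, and around Itgb6 the 7 neighbours had 9 and 11. Around Itgb2 the 39 neighbours had 15 and 9, and around Lamb1 the 12 neighbours had 4 and 2. Whether the excess at a gene is separate from that of its neighbours was not tested.

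Single-genotype regions were the weaker ones of each list, within the set as elsewhere. In the WT list the median fold was 3.98 for the 70 WT-only and 6.10 for the 220 shared regions of the set. In the dKO list it was 3.92 for the 48 dKO-only and 6.71 for the shared regions. Of the WT-only regions 6 of 70 (8.57%) ranked in the stronger 50% of the WT list, against 11.97% of all WT-only regions at genes. Those 6 were at Itgb6 (2), Itgb2, Itga5, Itgb5 and Dst. Of the dKO-only regions 8 of 48 (16.7%) ranked in the stronger 50% of the dKO list, against 8.52% of all. Apart from the 5 at Itga8, they were at Lama2, Itga6 and Lama3, with 1 each. In shared regions the summits lay within 100 bp of each other in 163 of 220 (74.1%), against 76.6% over all regions at genes.

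**Figure D4:**
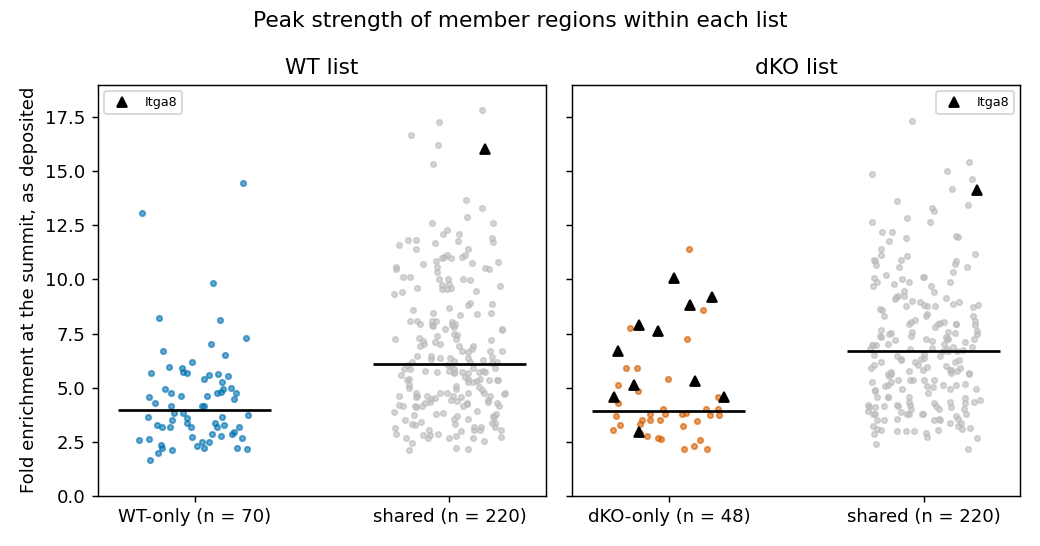
Deposited fold enrichment at the summit (vertical axis) of each region of the set, in the WT list (left, WT-only and shared) and in the dKO list (right, dKO-only and shared); each point is a region, horizontal bars are medians, and triangles are regions of Itga8. Folds are to be read within a list: single-genotype regions lie lower than shared ones in both, and the Itga8 triangles make up much of the upper range of the dKO-only column.

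**Figure D5:**
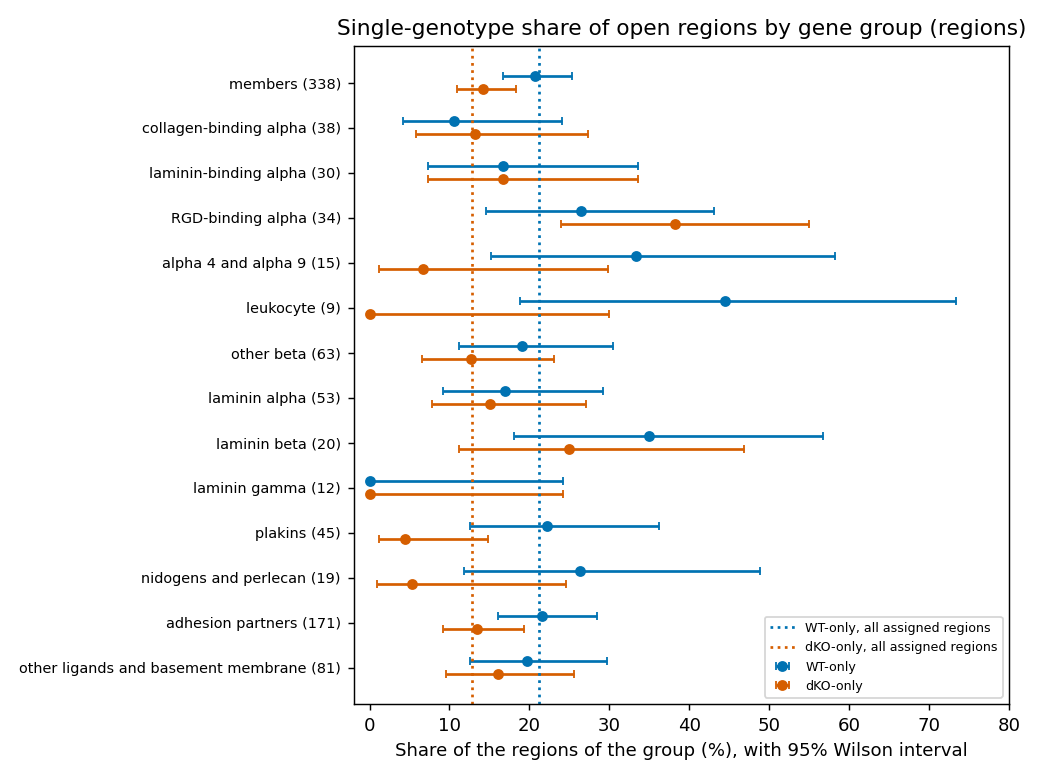
WT-only (blue) and dKO-only (orange) shares of the regions of each gene group (horizontal axis, percent, with 95% Wilson intervals of counting error), with the number of regions in brackets; dotted lines are the shares over all regions placed at genes, 21.2% and 12.8%. RGD-binding alpha genes, with Itga8 among them, have the highest dKO-only share, 38.2%, and theirs is the one interval that does not reach the dotted line of its class.

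Regions of the set lay mostly inside genes. A gene body held 231 (68.3%), 31 (9.17%) lay at a gene end, at most 1 kb from the first or last base of a coding gene, and 76 (22.5%) lay between genes. Over all regions at genes these shares were 49.4%, 18.0% and 32.5%. The shares were not matched for gene length, which in the set reached 636 kb (Lama2), and the part of gene length was not tested. At gene ends 28 of 31 regions were shared (90.3%), close to the 90.2% over all regions. Between genes the set had 20 WT-only and 20 dKO-only regions of 76, so that dKO-only regions made up 26.3% (interval 17.7 to 37.2), where all regions between genes gave 15.7%. Of those 20 dKO-only regions 5 were at Itga8. Of the 36 genes, 27 had a region at an own end, 24 of them a shared one, and the shares of all genes for these counts were not computed.

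Genes that work with integrins gave shares near those of the set. A list of 17 partners inside the cell or in the membrane had 171 regions, 37 WT-only, 23 dKO-only and 111 shared (21.6% WT-only and 13.5% dKO-only, beside 21.2% and 12.8% over all regions at genes). Of the 17 genes, 8 had an excess of WT-only regions and 3 an excess of dKO-only ones, and 1 (Ilk) had no region. Of all genes with a region, 34.5% had the first and 16.6% the second. These shares were not matched for the number of regions of a gene. A WT-only excess of at least 3, reached by 7.16% of all genes, was found at Actn1 (9 against 3) and Vcl (4 against 1), which encode the actin-linking proteins alpha-actinin and vinculin, and at the kinase gene Src (5 against 0). More dKO-only regions were found at Tln2 (3 against 5), Ptk2 (2 against 4), which encodes focal adhesion kinase, and Fermt2 (1 against 3). A list of 10 other ligands and basement membrane genes had 81 regions, 16 WT-only, 13 dKO-only and 52 shared. Fn1, the fibronectin gene, had 2 WT-only and 1 shared region, and none of the 10 had an excess of 3.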

How the data were processed

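Open chromatin was measured by ATAC-seq in 2 WT and 2 dKO mice, and the deposited data hold 1 peak table per genotype. Bowtie2 2.2.9, Picard and MACS2, and the builds mm10 and GRCm38, are named in the submitters' processing notes without a role or order. Nothing in the sources used here says how both mice entered a list, if insertion sites were shifted for the transposase, or what was done with duplicates. The tables have the columns of MACS2, per the file headers. Pileup at the summit, the signal the authors deposited, is in reads or fragments and unscaled. Fold, also from the authors, is a ratio of pileup to local background. Significance was deposited as −log10 p and −log10 q values. A Poisson p value computed here from those columns equalled the deposited −log10 p to within 0.001 for 99.981% of 62811 WT peaks and 99.997% of 62822 dKO peaks.

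Mitochondrial peaks (5 WT, 3 dKO) were left out. Peaks that shared at least 1 bp were merged, and each was placed at the nearest of 21896 protein-coding genes within 100 kb by its summit, with RefSeq genes of GRCm38.p6, which mm10 corresponds to. That table gives no strand or exons, so 14 members without a promoter entry have no direction of transcription here. The floxed exons were not analysed here. The overlap step gave the same counts as bedtools 2.31.1 (difference 0), and simulated lists with known classes were recovered at 39 of 39 genes. The simulated peaks lay inside the gene bodies and overlapped only as intended. Regions outside genes and chains of overlapping peaks were therefore not covered by it. Python 3.11.15, numpy 2.4.6, pandas 2.3.3, scipy 1.17.1 and matplotlib 3.10.9 were used.

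The members and lists were chosen with earlier results of these data known. Every member is named with its counts by class. Pileup and fold are given for the 6 WT-only and 6 dKO-only regions with the highest −log10 q, the 8 shared regions with the highest WT −log10 q, the strongest gene-end region of each hemidesmosome and laminin gene, and genes with a difference of at least 3. With 1 list per genotype no p-value was computed. Other values were added to describe a gene.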

Additional observations from a re-analysis of the deposited data

How the results depend on the processing

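Under 9 alternatives for joining, filtering or placing peaks, Itga8 had a dKO-only excess in 9 of 9, of 5 to 11 regions. A WT-only excess of at least 3 was found in 8 of 9 at Dst, Itga5, Itgb6 and Hspg2, in 7 of 9 at Itga9 and Itgb2, and in 5 of 9 at Lamb1. It was also reached in 1 alternative each by Itga2, Itgb5 and Plec (the q limit) and by Itgav and Itgb1 (20 kb). Counting single-genotype peaks only from the stronger 50% of each list left 6 WT-only and 8 dKO-only regions, a net share of -0.855%, 0 genes with a WT-only excess of at least 3 and 5 dKO-only regions at Itga8, since this setting drops most such peaks. The net share over all regions at genes, 8.35%, was then 2.07%; it was 2.58% with lists of equal length, 6.69% with summits within 200 bp, 6.68% with the WT list thinned, 9.37% within 20 kb and 13.5% at the q limit. Lists of equal length gave a net share of 0% and 2 genes with a dKO-only excess of at least 3, Itga6 being the other, and summits within 200 bp also gave 2, with Lamb3. Genes within 20 kb left 7 dKO-only regions at Itga8. The net share of the set, 6.51%, rose to 11.7% at the q limit and to 10.1% within 20 kb. Both settings left 33 dKO-only regions in the set, where the main setting gave 48. The net share of the other ligands and basement membrane genes, 3.70%, was -2.56% with lists of equal length, -3.57% from the stronger 50% and -1.69% within 20 kb. That of the adhesion partners, 8.19%, was 21.3% when only peaks with q of at most 1e-05 were used. It was 2.44% with lists of equal length and 0% from the stronger 50%, and both of these falls counted as kept. Gene ends within 2 kb held 14.2% of regions. For net shares the limits set were the 95% counting error, 6.26 points for the set. For counts they were a fixed ratio, and for the share at gene ends its Wilson interval. The fall to 33 dKO-only regions and both rises of the set's net share thus counted as kept. Of the values for the set and the lists, 68 kept within the limits set, 10 moved and 4 changed sign. Of those for single genes and for all regions, 65 kept within them and 16 moved. For the last 2 results the cause was not tested.

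No paired analysis was possible because each genotype has 1 peak list for both mice and the mouse numbers are not shared. For the same reason leaving out a mouse was not run. The dKO list had the lower pileups, which limits its weak peaks, and a peak missing from a list is not evidence of closed chromatin.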
